A study of Mus musculus with 10 samples.

Results

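The circRNAs described here are those listed under a database identifier, that is, under a name that begins with mmu_circ. They were chosen by this name alone, and they make up 975 of the 9029 circRNAs (10.8%) in a table of circRNA counts from the developing mouse retina. The other 8054 are named by chromosome, start, end and strand, and are called position-named circRNAs below. The retinae came from C57BL/6 mice at embryonic day 18.5 (E18.5) and at postnatal days 1, 7, 14 and 30 (P1, P7, P14 and P30), and each age is represented by 2 of the 10 libraries. The labels give no treatment, transgene or mutation for any age, and do not say which or how many animals stand behind a library. Total RNA was depleted of ribosomal RNA before sequencing. One of the E18.5 columns is numbered differently from both E18.5 labels. It is treated as an E18.5 library and called unnumbered.

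A circRNA is formed when a splice donor joins back to an acceptor that lies upstream of it in the same transcript, so that the exons between them close into a ring. Such a ring has no free ends and no poly(A) tail, is resistant to exonucleases, and is seen in sequencing only by the reads that cross the back-splice junction. CircRNAs are known to be common in neural tissue and to build up as neurons mature. The ages sampled here run from a retina in which neurons are still being born, through the time of synapse formation and eye opening, to the mature retina. Catalogues of circRNAs give each junction a running number, which by itself says nothing about function. Neither the table nor the annotation used here pairs a database ID with a gene, a position or a sequence, so no host gene, role or sequence is given for any of these circRNAs, and the tissue could not be checked against marker genes.

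The values are estimated counts without normalization. The total over all circRNAs ran from 6606.5 to 28658 counts per library and was largest at P30. All values are multiples of 0.5, and no value lies between 0 and 2, so a circRNA at 0 may have been below this minimum. Values that end in 0.5 made up 48.3% of the values above 0 under database IDs and 44.6% of those of position-named circRNAs. CPM below means counts per 1000000 of all circRNA counts listed in a library. A lower CPM can therefore reflect more counts elsewhere in the library. The table holds no linear RNA, so it gives no level of a circRNA relative to its gene, and in whole retinae fewer cells of a type cannot be told apart from less RNA per cell.

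CircRNAs under database IDs were listed far more often than position-named ones. Of the 975, 831 were above 0 in at least 1 library and 144 (14.8%) stood at 0 in every library, against 2520 (31.3%) of the position-named circRNAs. In a single library, between 31.4% and 53.9% of the database IDs were above 0, and between 6.54% and 28.2% of the position-named circRNAs. The share was higher for database IDs in 10 of 10 libraries, by a mean of 26.2 percentage points (two-sided paired exact permutation test over libraries, p = 0.00195, the smallest that 10 pairs can give). The same circRNAs are compared in every library, so this p does not measure the spread between circRNAs. All 10 libraries listed 109 of the database IDs (11.2%) but only 50 of the position-named circRNAs (0.621%). At the other end, 182 database IDs were above 0 in exactly 1 library, as were 3386 position-named circRNAs (42.0%). The counts were also larger. The median value above 0 was between 5.5 and 9 counts per library under database IDs and between 3.5 and 4.5 counts for position-named circRNAs. The number of database IDs with at least 50 counts ran from 11 to 49 per library, and that of position-named circRNAs from 0 to 32.

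The 2 libraries of an age often did not list the same circRNAs. At E18.5, 205 database IDs were above 0 in both libraries and 202 in only 1 of them. At P30 the numbers were 386 and 268, so that 59.0% of the database IDs listed at this age were listed in both libraries, against 29.6% of the position-named ones. Where only 1 library listed a database ID, its median value was 4 counts at E18.5, P1 and P7 and 4.5 counts at P14 and P30. Larger values without a partner also occurred. Mmu_circ_0001047 had 45.5 counts in the unnumbered E18.5 library and stood at 0 in the other 9 libraries, and mmu_circ_0000989 had 40 counts in P30 replicate 2 and stood at 0 everywhere else. These IDs were picked after their values were seen. Among database IDs listed by both libraries of an age with a mean of at least 20 counts, the 2 values in CPM differed by a median factor of 1.24 at E18.5 (39 circRNAs), 1.25 at P1 (56 circRNAs), 1.29 at P7 (50 circRNAs), 1.40 at P14 (70 circRNAs) and 1.24 at P30 (124 circRNAs). Database IDs above 0 in both libraries of 1 age and at 0 in all others numbered 1 at E18.5, 3 at P1, 2 at P7, 4 at P14 and 19 at P30. These 29 are 2.97% of the 975, and the same held for 3.93% of all 9029 circRNAs. These listings were not taken at equal totals, and the P30 libraries had the largest totals. The most abundant of the 19, mmu_circ_0000135, had 6.5 and 11.5 counts.

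The part of a library's circRNA counts that fell under database IDs became smaller with age. It was 60.2% ± 0.194 at E18.5, 55.4% ± 1.06 at P1, 53.5% ± 0.180 at P7, 49.6% ± 2.18 at P14 and 40.9% ± 0.414 at P30 (mean ± SD, n = 2 per age). No library of one age overlapped with those of the next in this share. The 95% Wilson interval, which covers counting error only, ran from 59.2% to 61.5% in E18.5 replicate 1 and from 40.1% to 41.2% in P30 replicate 3. Over the 10 libraries the share fell with age, taken as its rank (Pearson's r = -0.961, with a two-sided permutation p of 2e-05 and 6e-05 after adjustment over 3 relations, and Spearman's rho = -0.985, with 2e-05 and 6e-05). Leaving out the P30 libraries, whose shares lie farthest from the median, gave r = -0.963 with an exact permutation p of 0.000794. The counts under database IDs themselves went up, from 3986 and 4280.5 at E18.5 to 11583.5 and 11644 at P30, while those of position-named circRNAs went from 2620.5 and 2846.5 to 16521 and 17014.

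The share also moved with the total count of a library (r = -0.972 with its log10, permutation p = 3e-05), and in 5 of 5 ages the library with the larger total had the lower share. Thinning at random leaves a share the same on average, so thinning alone cannot show whether the share depends on depth. When every library was thinned to 6569 counts, the share was 60.3% ± 0.213 at E18.5 and 41.1% ± 0.405 at P30 (mean ± SD, n = 2 per age). When values under 2 were also set to 0 after thinning, a step chosen after seeing the data, it was 60.4% ± 0.0896 at E18.5 and 45.3% ± 0.472 at P30 (mean ± SD, n = 2 per age). Within the 159 circRNAs that all 10 libraries listed, database IDs held between 81.2% and 84.7% of the counts at every age, with 83.1% ± 0.609 at E18.5 and 82.7% ± 0.739 at P30 (mean ± SD, n = 2 per age). Within these 159, the share at P30 lay inside the range of the other ages. CircRNAs that stood at 0 in both E18.5 libraries held 15.3% and 16.0% of the database-ID counts in the P30 libraries, and 67.9% and 68.0% of the position-named counts.

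The number of database IDs above 0 was larger at the later ages as listed, but not at equal totals. It was 306 in both E18.5 libraries, 347 and 384 (P1), 358 and 309 (P7), 381 and 461 (P14), and 526 and 514 (P30). This number rose with age, taken as its rank (Pearson's r = 0.864, with a two-sided permutation p of 0.00139 and 0.00208 after adjustment over 3 relations, and Spearman's rho = 0.864, with 0.00238 and 0.00357). Leaving out both P30 libraries gave r = 0.705 with an exact permutation p of 0.0484. It followed the total count of a library more closely (r = 0.981 with its log10, permutation p = 3e-05). With each library thinned to the smallest total and a minimum of 2 counts, 303 ± 4.31 database IDs were left at E18.5, 337 ± 19.98 at P1, 312 ± 16.2 at P7, 331 ± 15.7 at P14 and 311 ± 0.318 at P30 (mean ± SD, n = 2 per age). In the thinned libraries the correlation with age was 0.088 (permutation p = 0.807). Position-named circRNAs thinned in the same draws numbered 526 ± 1.17 at E18.5, 639 ± 2.86 at P1 and 794 ± 13.3 at P30 (mean ± SD, n = 2 per age). Whether the 2 kinds of names differ in this course was not tested. Thinning evens out sequencing depth and the amount of circRNA alike, and the part of each was not tested.

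**Figure D1:**
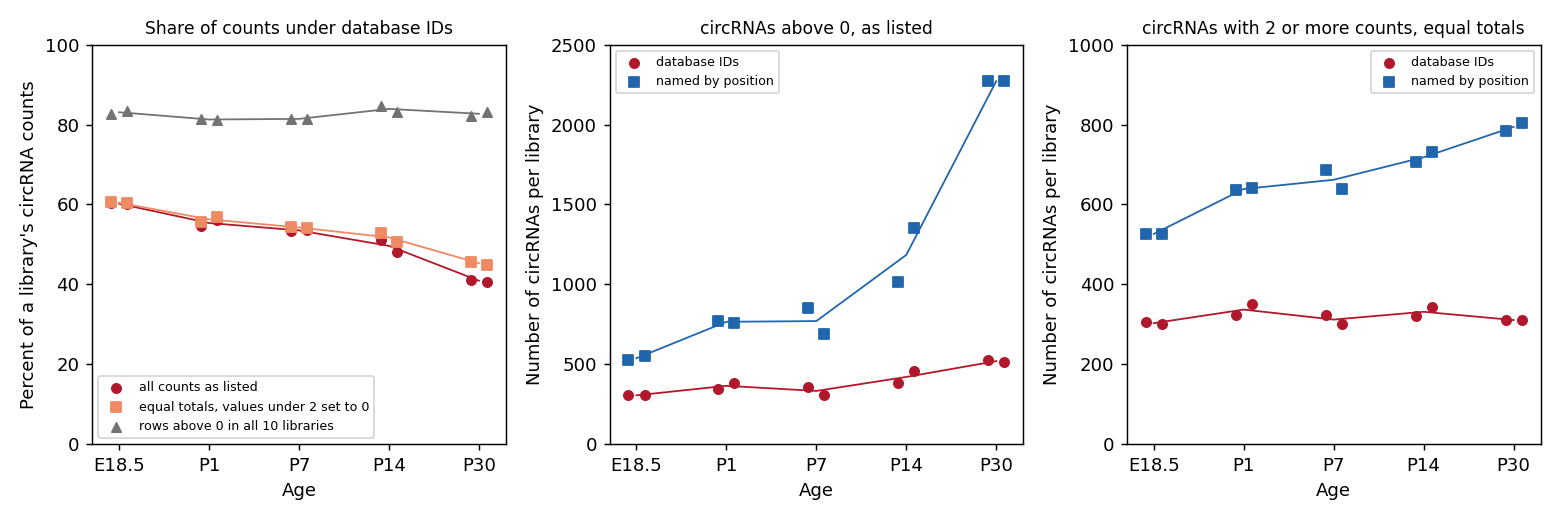
Left, percent of a library's circRNA counts under database IDs, as listed (circles), at equal totals with values under 2 set to 0 (squares) and among circRNAs above 0 in all 10 libraries (triangles); middle, number of circRNAs above 0; right, number with at least 2 counts after thinning to equal totals. Each point is 1 of 2 libraries per age and lines join the means. The share as listed goes from 60.2% at E18.5 to 40.9% at P30 but stays between 81.2% and 84.7% among circRNAs that all 10 libraries listed. At equal totals the number under database IDs is 303 at E18.5 and 311 at P30, and the number of position-named circRNAs goes from 526 to 794.

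A few circRNAs held a large part of the database-ID counts. The 10 most abundant IDs of a library held between 28.9% and 36.0% of its database-ID counts, the 50 most abundant between 55.4% and 59.8%, and the 100 most abundant between 69.8% and 75.9%. Between 28 and 39 IDs were enough to reach 50% of these counts. Position-named counts were spread more widely, with between 7.58% and 11.5% in the 10 most abundant. The share of the 10 most abundant IDs was 29.9% ± 0.452 at E18.5, 35.2% ± 1.15 at P14 and 30.1% ± 0.860 at P30 (mean ± SD, n = 2 per age). Over the 10 libraries it showed no correlation with the rank of age that passed the threshold (Pearson's r = 0.377, with a two-sided permutation p of 0.284 and 0.284 after adjustment over 3 relations, and Spearman's rho = 0.369, with 0.303 and 0.303). Leaving out both P14 libraries, whose shares are the highest, gave r = 0.161 with an exact permutation p of 0.713. The single most abundant ID held between 11.8% and 13.3% of the database-ID counts in every library up to P14, but 8.98% and 8.01% in the P30 libraries. The IDs at the top changed with age. Of the 10 with the highest mean CPM at E18.5, 8 were also among the 10 highest at P1, 8 at P7, 4 at P14 and 4 at P30, whereas P14 and P30 shared 7. The 4 among the 10 highest at every age were mmu_circ_0000723, mmu_circ_0001311, mmu_circ_0001350 and mmu_circ_0001878.

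**Figure D2:**
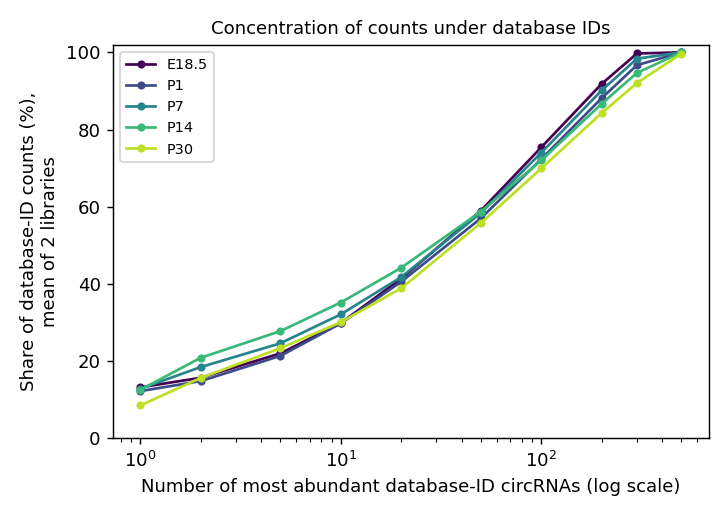
Share of database-ID counts (percent, mean of 2 libraries per age) held by the most abundant database-ID circRNAs, against how many are counted (log scale); each line is 1 age. The 10 most abundant hold 29.9% at E18.5, 35.2% at P14 and 30.1% at P30, and at 50, 100 and 200 IDs the curve of P30 is the lowest.

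Identical counts under several IDs were rare once counts were not small. Among the 831 database IDs above 0, 157 (18.9%) shared their 10 values with another database ID, in 50 sets. Of the 5534 position-named circRNAs above 0, 3679 (66.5%) shared theirs with another position-named one. Of these 157, 143 were above 0 in a single library and 8 in 2 libraries, where low values coincide easily. The largest such set held 8 IDs, each with 2 counts in P30 replicate 2 and 0 elsewhere. With a total of at least 20 counts over the 10 libraries, 433 database IDs remained and 6 of them (1.39%) fell into 3 pairs, whereas 0 of 727 position-named circRNAs did. The first pair, mmu_circ_0001124 and mmu_circ_0001125, had 18 and 22.5 counts (E18.5), 31 and 21 (P1), 26 and 18.5 (P7), 9.5 and 6.5 (P14), and 62.5 and 51 (P30), the same under both IDs in 10 of 10 libraries and 266.5 in total under each. In the second pair, mmu_circ_0001681 and mmu_circ_0001682 were above 0 in 6 libraries with the same 6 values and totals of 28.5. In the third, mmu_circ_0001272 and mmu_circ_0001274 were above 0 in 5 libraries and had totals of 22. Their numbers are 1 apart in the first and second pair and 2 apart in the third. Of the 578 pairs of IDs with neighbouring numbers in the table, 1 other pair shared any 2 values above 0, mmu_circ_0001147 and mmu_circ_0001148, with totals of 101 and 107. The table does not say whether an ID pair stands for 1 junction counted under 2 names. With each set of identical circRNAs merged into 1, 56 database IDs were called between E18.5 and P30, against 55 without merging, and 54 were shared.

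For the comparison of ages, all circRNAs were filtered for low counts, scaled by TMM (trimmed mean of M-values, which sets libraries on the same level by the bulk of the circRNAs kept) and tested together with edgeR. Of the 327 circRNAs tested, 178 were database IDs and 149 position-named. The other 797 database IDs did not pass the low-count filter, which asks for more counts in larger libraries, and were not tested. The 178 tested held between 76.0% and 83.8% of the database-ID counts of a library. A change was called at an adjusted p under 0.05. Of the 178, 58 (32.6%) changed across the 5 ages, against 36.7% of all circRNAs tested (edgeR's quasi-likelihood test). Among these 58, the mean CPM was highest at E18.5 for 22, at P1 for 6, at P7 for 4, at P14 for 10 and at P30 for 16. Among all 178 the numbers were 68, 34, 32, 23 and 21 in the same order. These ages go by CPM of all listed counts, whereas the calls scale by the circRNAs kept. The age of the highest CPM can therefore differ from that of the highest fitted level. Without P14 replicate 3, P30 replicate 2 or P30 replicate 3, 29, 24 and 21 database IDs changed across the ages.

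Between E18.5 and P30, 29 database IDs were called as risen and 26 as fallen by edgeR. A rise or fall is relative to the bulk of the circRNAs that passed the low-count filter, not to the library as a whole. The circRNAs that passed held 63.9% and 64.7% of all circRNA counts in the E18.5 libraries. In the P30 libraries they held 49.2% and 49.0%. The 55 calls together are 30.9% of the 178 tested, where 35.2% of all tested circRNAs were called. The 29 that rose are 16.3% of the 178, where 24.8% of all tested circRNAs rose, and the 26 that fell are 14.6%, where 10.4% of all tested circRNAs fell. Of the 34 falls called in the whole table, 26 were database IDs. The median log2 fold change over the 178 was 0.04, and over all circRNAs tested it was 0.31. With the totals of the kept circRNAs in place of TMM, these medians were -0.47 and -0.21, and 19 database IDs rose and 40 fell. The rises include 4 IDs listed at 0 at E18.5. The log2 fold changes of the remaining 25 lay between 1.35 and 5.47 with a median of 2.70. The falls include 5 IDs listed at 0 at P30, and the remaining 21 lay between -4.54 and -0.53 with a median of -2.42. Only 31 calls were made without P30 replicate 2, and 26 without P30 replicate 3. Before any test, 128 of the 975 database IDs (13.1%) stood at 0 in both E18.5 libraries and above 0 in both P30 libraries, where 9.81% of all listed circRNAs did. The reverse held for 14 (1.44%), where 0.576% of all did, and 160 were above 0 in all 4 libraries. These listings were not taken at equal totals. The P30 libraries held 28104.5 and 28658 counts and the E18.5 libraries 6606.5 and 7127. At equal totals, 303 database IDs had at least 2 counts at E18.5 and 311 at P30 (means of 2 libraries).

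**Figure D3:**
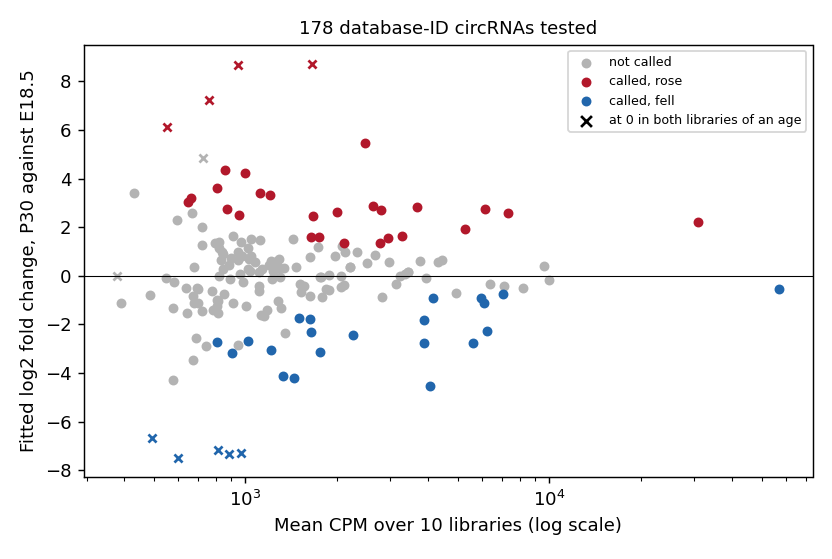
Fitted log2 fold change at P30 against E18.5 (TMM scaling) of the 178 database-ID circRNAs tested, against mean CPM over the 10 libraries (log scale). Red points rose (29) and blue points fell (26) at an adjusted p under 0.05 from edgeR. Crosses are circRNAs at 0 in both libraries of an age, whose fitted fold change has no fixed size.

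The pair of most abundant IDs crossed during development. Mmu_circ_0000723 had 532 and 558 counts (E18.5), 628.5 and 568 (P1), 680 and 494 (P7), 513 and 665.5 (P14), and 876.5 and 778 (P30). Its counts were thus highest at P30, where the libraries are largest, while its CPM was lowest there. Mmu_circ_0001878 had 92.5 and 100.5 counts (E18.5), 114 and 118 (P1), 314 and 203.5 (P7), 753.5 and 1031.5 (P14), and 1040 and 932.5 (P30). Mmu_circ_0000723 led the database IDs in the 6 libraries up to P7, and mmu_circ_0001878 in the 4 libraries of P14 and P30. At P30 against E18.5 the log2 fold change was 2.23 for mmu_circ_0001878 (standard error 0.125, adjusted p = 2.46e-08 from edgeR) and -0.53 for mmu_circ_0000723 (standard error 0.0845, adjusted p = 0.000335 from edgeR). The call of mmu_circ_0001878 was made in all 19 alternatives run. That of mmu_circ_0000723 was not made in 7 of 19, among them without either E18.5 library, without either P1 library and without P30 replicate 3.

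The other 8 of the 10 IDs with the highest mean CPM divided into those called at P30 against E18.5 and those not called. Mmu_circ_0000595 had 31.5 and 21 counts at E18.5 and 336.5 and 356 at P30, with a log2 fold change of 2.57 (standard error 0.325, adjusted p = 6.69e-05 from edgeR). In CPM it was 3857 ± 1288 at E18.5, 6543 ± 1602 at P7 and 12198 ± 318 at P30, and the libraries of P30 did not overlap with those of E18.5 (mean ± SD, n = 2 per age). Mmu_circ_0001698 ran the other way, from 56 and 74.5 counts at E18.5 to 27 and 32.5 at P30. Although the P30 libraries are the largest, its counts there were the lowest of any age, and its log2 fold change was -2.25 (standard error 0.313, adjusted p = 0.000131 from edgeR). Both calls were made in 19 of 19 alternatives. Mmu_circ_0000372 had 60.5 and 68 counts at E18.5 and 81 and 85 at P30, a log2 fold change of -0.75 (edgeR, adjusted p = 0.0447). This call was not made in 12 of 19 alternatives, among them without either E18.5, P1, P7 or P30 library and without P14 replicate 1. The remaining 5 had adjusted p between 0.182 and 0.638 from edgeR at P30 against E18.5. Of these, mmu_circ_0001350 had a log2 fold change of 0.39, while its mean CPM went from 8772 to 6072. That of mmu_circ_0001311 was -0.16, with 104.5 and 61.5 counts in its 2 E18.5 libraries. Across the 5 ages, edgeR called mmu_circ_0000377 (adjusted p = 0.0143) and mmu_circ_0001350 (adjusted p = 0.0155). It did not call mmu_circ_0001283, mmu_circ_0001311 or mmu_circ_0001797 across the ages.

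The rises picked by fitted fold change, among IDs with a mean of at least 10 counts and no overlap between the ages, were those of mmu_circ_0001754, mmu_circ_0001066, mmu_circ_0000711, mmu_circ_0001055 and mmu_circ_0000097. The first 3 stood at 0 in both E18.5 libraries, where the fitted fold change has no fixed size, so no order of size is given among the 5. Mmu_circ_0001754 stood at 0 in both E18.5 libraries and had 53 and 50.5 counts at P14 and 69 and 95 at P30 (adjusted p = 0.000143 from edgeR). Mmu_circ_0001066 also stood at 0 at E18.5, had between 0 and 12 counts in the libraries of P1, P7 and P14, and reached 81.5 and 77 counts only at P30 (adjusted p = 0.000641 from edgeR). Mmu_circ_0001055 was gained earlier, with 0 and 2.5 counts (E18.5), 17.5 and 20.5 (P7), 72.5 and 89 (P14), and 113.5 and 96.5 (P30). Its log2 fold change at P30 against E18.5 was 5.47 (edgeR, standard error 0.618, adjusted p = 2.35e-05). It was also called at the step to P7, by 2.11 (edgeR, adjusted p = 0.0382), and at the step to P14, by 1.79 (edgeR, adjusted p = 0.0127). The first of these step calls was lost whenever 1 library of P1, P7, P14 or P30 was left out, and the second whenever 1 library of P7, P14 or P30 was. Mmu_circ_0000711 stood at 0 at E18.5, had between 5 and 14.5 counts from P1 to P14 and 25 and 34 counts at P30 (adjusted p = 0.0039 from edgeR). In CPM it was 1118 ± 803 at P1, 556 ± 126 at P14 and 1038 ± 210 at P30 (mean ± SD, n = 2 per age). Mmu_circ_0000097 went from 2.5 and 0 counts to 62.5 and 36 (log2 fold change 4.36, adjusted p = 0.0024 from edgeR, but not called without P30 replicate 2). By mean CPM, mmu_circ_0000711 was highest at P1, mmu_circ_0001754 and mmu_circ_0001055 at P14, and mmu_circ_0001066 and mmu_circ_0000097 at P30. The step from P14 to P30 was called for none of the 5, and whether their courses differ was not tested.

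The largest falls by the same rule were those of mmu_circ_0001471, mmu_circ_0000713, mmu_circ_0001362, mmu_circ_0001295 and mmu_circ_0001239. Mmu_circ_0001471 had 47 and 64 counts (E18.5), 75.5 and 59.5 (P1), 27.5 and 31.5 (P7), 13 and 10 (P14), and 5.5 and 3.5 (P30). Its libraries lay lower at each age from P7 on without overlap, its log2 fold change was -4.54 (standard error 0.440, adjusted p = 6.48e-06 from edgeR), and the call was made in 19 of 19 alternatives. The other 4 rest on small counts, and each had 0 counts in P30 replicate 3 and between 4 and 10 in P30 replicate 2. Mmu_circ_0000713 had 9.5 and 27 counts at E18.5 (log2 fold change -4.19, adjusted p = 0.00544 from edgeR), and mmu_circ_0001362 had 16.5 and 19 (log2 fold change -4.13, adjusted p = 0.00526 from edgeR). Mmu_circ_0001295 had 24 and 18 counts at E18.5 (log2 fold change -3.16, adjusted p = 0.00887 from edgeR), and mmu_circ_0001239 had 10.5 and 22 (log2 fold change -3.06, adjusted p = 0.0259 from edgeR). Without P30 replicate 3 none of these 4 was called. Mmu_circ_0001295 was also not called without E18.5 replicate 1, and mmu_circ_0001239 not without the unnumbered E18.5 library or P14 replicate 3.

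**Figure D4:**
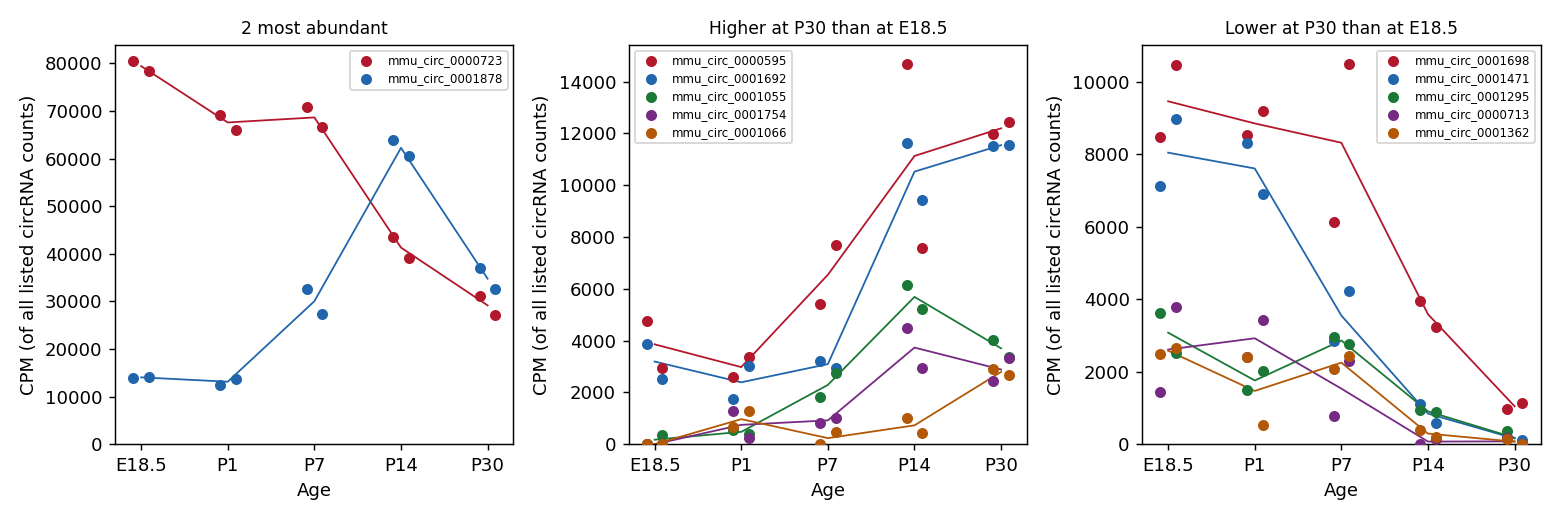
CPM (counts per 1000000 listed circRNA counts) by age of the 2 most abundant database IDs (left), 5 that rose (middle) and 5 that fell (right) between E18.5 and P30; each point is 1 of 2 libraries per age and lines join the means. Mmu_circ_0001878 passes mmu_circ_0000723 at P14. Mmu_circ_0001066 is at 0 in both E18.5 libraries and has its highest values at P30.

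Several IDs with neighbouring numbers were called in the same direction. Among the 55 called between E18.5 and P30, 10 pairs had numbers 1 apart, and in 10 of 10 both members moved in the same direction. The pairs overlap, since a run of 4 IDs and a run of 3 IDs each gave several of them. Among all 32 pairs of neighbouring numbers in which both IDs were tested, 24 had fold changes of the same sign. This is a description, and nothing used here tells whether neighbouring numbers belong to 1 gene. The longest run was that of mmu_circ_0001754 to mmu_circ_0001757, in which all 4 rose. Mmu_circ_0001755 had 3 and 7.5 counts at E18.5, 75.5 and 91.5 at P14 and 76 and 82.5 at P30 (log2 fold change 2.70 at P30 against E18.5, adjusted p = 0.000374 from edgeR). Mmu_circ_0001757 had 0 and 11.5 counts (E18.5), 6 and 3.5 (P1), 52.5 and 23 (P7), 105 and 171.5 (P14), and 79.5 and 108.5 (P30). Its log2 fold change at P30 against E18.5 was 2.84 (edgeR, adjusted p = 0.0039). Mmu_circ_0001756 was the least abundant, with 39.5 and 35 counts at P30 (adjusted p = 0.0447 from edgeR), and its call was not made in 10 of 19 alternatives, among them without E18.5 replicate 1, P7 replicate 2, P14 replicate 3 or either P30 library. The counts of these 4 differed, so they are not copies of 1 set of values. In CPM, all 4 had their highest mean at P14.

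The 3 IDs from mmu_circ_0001470 to mmu_circ_0001472 all fell. Beside mmu_circ_0001471, mmu_circ_0001470 had 34.5 and 48.5 counts at E18.5 and 23.5 and 26.5 at P30 (log2 fold change -1.83, adjusted p = 0.0039 from edgeR). Mmu_circ_0001472 had 17.5 and 10.5 counts at E18.5 and was listed at 0 in P30 replicates 2 and 3 (edgeR, adjusted p = 0.000769). The fall was thus of unequal size among the 3. The pairs that rose together were mmu_circ_0000198 and mmu_circ_0000199, mmu_circ_0000595 and mmu_circ_0000596, and mmu_circ_0001691 and mmu_circ_0001692. Those that fell together were mmu_circ_0000713 and mmu_circ_0000714, and mmu_circ_0001361 and mmu_circ_0001362. The IDs in these runs that are not among the most abundant or most changed were named after their values were seen.

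**Figure D5:**
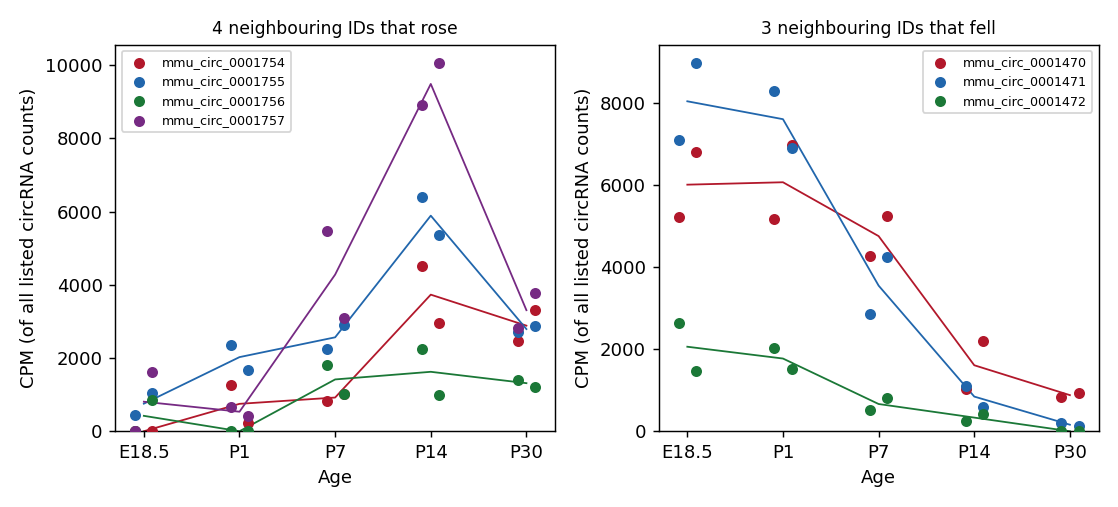
CPM (counts per 1000000 listed circRNA counts) by age of 2 runs of neighbouring database IDs; each point is 1 of 2 libraries per age and lines join the means. The 4 IDs on the left have their highest mean at P14. Of the 3 on the right, mmu_circ_0001472 is at 0 in both P30 libraries.

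At single steps few database IDs were called. From E18.5 to P1, 0 of the 178 were called, as was 0% of all circRNAs tested (edgeR), with 11 database IDs at an unadjusted p under 0.05 and 0 called by DESeq2. At the step from P1 to P7 edgeR called 4 rises and 0 falls among the database IDs, 2.25% of the 178, where 4.28% of all were called, with 3.98% as rises. These were mmu_circ_0001055, mmu_circ_0001756, mmu_circ_0001757 and mmu_circ_0001878, the last of which was not called without P1 replicate 1. Mmu_circ_0001757 rose by a log2 fold change of 2.89 (standard error 0.682, adjusted p = 0.032 from edgeR), and mmu_circ_0001756, at 0 in both P1 libraries, had 17.5 and 7.5 counts at P7 (adjusted p = 0.0382 from edgeR). The step call of mmu_circ_0001757 was not made without P1 replicate 1, P1 replicate 2, P7 replicate 1, P14 replicate 3 or either P30 library, and that of mmu_circ_0001756 was lost whenever 1 library of P1, P7 or P30, or P14 replicate 3, was left out.

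At the step from P7 to P14 edgeR called 7 rises and 1 fall, 4.49% of the 178, where 5.5% of all were called, 4.89% as rises and 0.612% as falls. With the totals of the kept circRNAs in place of TMM, 5 rises and 8 falls were called. The clearest rise beside that of mmu_circ_0001878 was that of mmu_circ_0001692, from 31 and 22 counts at P7 to 137 and 160.5 at P14. It had 324 and 331.5 counts at P30, and that further step was not called. Its log2 fold change at this step was 2.22 (edgeR, standard error 0.286, adjusted p = 0.00037), and of 19 alternatives only the replicate block lost the call. Mmu_circ_0001754 rose by 2.42 (standard error 0.577, adjusted p = 0.0298 from edgeR), a call that was lost whenever 1 library of P7, P14 or P30 was left out. The ID that fell was mmu_circ_0001471, by -1.65 (adjusted p = 0.0298 from edgeR), and this call was lost without the same libraries and without P1 replicate 1.

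At the step from P14 to P30 edgeR called 4 rises and 2 falls, 3.37% of the 178, where 2.75% of all were called, 2.14% as rises and 0.612% as falls. With the totals of the kept circRNAs in place of TMM, 4 rises and 5 falls were called. Of the 4 that rose, mmu_circ_0001124 and mmu_circ_0001125 are the pair with identical counts, so their calls rest on the same values, with 9.5 and 6.5 counts at P14 and 62.5 and 51 at P30 (log2 fold change 2.12, standard error 0.470, adjusted p = 0.0245 from edgeR). The other 2 were the neighbours mmu_circ_0000628, from 19.5 and 24 counts to 115.5 and 82.5, and mmu_circ_0000629, from 14 and 43.5 to 125.5 and 172. All 4 were low at P14 rather than new at P30. In CPM, mmu_circ_0001124 had 2941 ± 306 at E18.5, 594 ± 301 at P14 and 2002 ± 314 at P30 (mean ± SD, n = 2 per age). At P30 against E18.5 its log2 fold change was 0.37 (edgeR, adjusted p = 0.532). The fit scales by the kept circRNAs and CPM by all listed counts, so the signs can differ. The IDs that fell were mmu_circ_0001698, by -1.43 (standard error 0.316, adjusted p = 0.0245 from edgeR), and mmu_circ_0001878, by -0.51 (standard error 0.115, adjusted p = 0.0245 from edgeR). With P1 replicate 1, P7 replicate 2 or any P14 or P30 library left out, 0 database IDs were called at this step.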

How the data were processed

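Ribosome-depleted total RNA of mouse retinae at 5 ages was sequenced in 10 libraries. The authors deposited 1 table of estimated counts per circRNA and library, with no normalization. The submitters' processing notes name Trimmomatic and mm9; which circRNA caller and aligner were used, and why values are fractional, is not given in the sources used here. Column names were read against the titles of the samples, and 0 columns were left unused.

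The quasi-likelihood test of edgeR 4.0.16 in R 4.3.3 was run on the rounded counts of all circRNAs, with age as a factor. The low-count filter was filterByExpr. It asked for a CPM, in at least 2 libraries, that equals 10 counts at the median library total. It also asked for 15 counts in total. More counts were thus needed in larger libraries, such as those of P30. Library sizes in the fit were the totals of the kept circRNAs, and the scaling was TMM. P-values were adjusted by Benjamini-Hochberg over the 327 circRNAs tested. The common dispersion was 0.125. The labels do not tie libraries to animals, so p-values measure the spread between libraries. Correlations with age used 100000 resamples for 10 libraries and all orders for fewer. Thinned values are means of 20 draws. The other steps ran in Python 3.11.15 with pandas 2.3.3, numpy 2.4.6 and scipy 1.17.1, and figures in matplotlib 3.10.9.

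By rule, the text names the 10 IDs with the highest mean CPM, the 5 largest rises and falls from E18.5 to P30 by fitted fold change and the 2 largest changes per step (called, mean of at least 10 counts, ages not overlapping), and IDs of at least 100 counts with identical values. The members, lists and tests were chosen with earlier results of these data known. Alternatives were other scalings, filters and fits, DESeq2 1.42.0, merged identical circRNAs, a replicate block and each library left out; thinning with values under 2 set to 0 and the identical sets without each library were added after seeing the data.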

Additional observations from a re-analysis of the deposited data

How the results depend on the processing

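With a library left out, its age rests on 1 library, assumed to vary like the others, and more circRNAs pass the low-count filter. Calls of database IDs then numbered 21 to 65 across the 5 ages and 26 to 57 between E18.5 and P30. Step by step they numbered 0 to 2 (E18.5 to P1), 0 to 6 (P1 to P7), 2 to 17 (P7 to P14) and 0 to 7 (P14 to P30). For the step to P1, 2 were called without P1 replicate 2. The step to P7 had 0 calls without P1 replicate 1, and 1 without P7 replicate 1, P14 replicate 3 or either P30 library. The step to P14 had 17 calls when the unnumbered E18.5 library was left out and 2 without any P7, P14 or P30 library. Correlations with age ranged from -0.981 to -0.953 for the share of counts, from 0.822 to 0.918 for the number above 0 and from 0.288 to 0.614 for the share of the 10 most abundant. The difference in listing ranged from 25.7 to 26.5 percentage points, and the IDs with identical counts numbered from 4 to 6.

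The cause of the following changes was not tested. A minimum of 10 counts in both libraries of some age gave 1 call at the step to P7, 4 at the step to P14 and 0 at the step to P30. No low-count filter gave 3 calls at the step to P1 and 1 at the step to P30. Fits of the 2 neighbouring ages alone gave 0 calls at the step to P7, 18 at the step to P14 and 0 at the step to P30. At the step to P14, the totals of the kept circRNAs without TMM, DESeq2 and a fit of the database IDs alone gave 13 calls each. DESeq2 gave 11 at the step to P30. At equal totals, r of the number above 0 with age was 0.088. Without a minimum total 157 IDs had identical counts, and with a minimum of 100 counts 2 had.

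The replicate block over the 9 numbered libraries gave 11 calls across the 5 ages, 14 between E18.5 and P30, all among the 55, and 0 at the steps to P7, P14 and P30. What the numbers stand for is not stated. The difference of number 1 from number 2 at P1 and the same at P7 had a correlation of 0.0202 over circRNAs. These are the only ages that share 2 numbers, and a pairing across the other ages could not be checked.

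Of the named IDs, only ones not called between E18.5 and P30 changed the sign of their log2 fold change in that comparison. The totals of the kept circRNAs without TMM gave -0.16 for mmu_circ_0001124 and mmu_circ_0001125 and -0.14 for mmu_circ_0001350. The replicate block gave 0.026 for mmu_circ_0001283 and 0.18 for mmu_circ_0001797. No low-count filter gave 0.042 for mmu_circ_0001311. Leaving out 1 library gave a range from -0.40 to 0.48 for mmu_circ_0001311 and from -0.70 to 0.34 for mmu_circ_0001797.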
